A study of Sus scrofa with 8 samples.

Results

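Left ventricular muscle of 2 pigs given high-dose glial growth factor 2 (GGF2) after a myocardial infarct was compared with that of 3 untreated pigs with an infarct, across all genes on the array. These 5 arrays, 1 for each animal, were chosen by the treatment in the labels out of 8 arrays in all; the other 3 came from low-dose animals and enter below only as a point of reference. The high dose was 2.0 mg/kg in each infusion and the low dose 0.67 mg/kg, both over 4 weeks. No infusion is named for the untreated animals, and neither the interval between infarct and treatment nor that between the last infusion and sampling is given in the sources used here. Every animal was a castrated male Yorkshire pig under 1 year old, the mean weight over the study was 54.5 kg, and all tissue came from the ventricle at a distance from the infarct. Values are log2 levels from an Affymetrix porcine genome array, on which a probe set is a group of probes for the same transcript.

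GGF2 is a secreted form of neuregulin-1. Neuregulins are made mainly by endothelial cells in the heart and bind ERBB3 and ERBB4 on the cell surface, which pair with ERBB2 and signal through the MAP kinase and AKT pathways. In the heart this pathway is known for supporting the survival and structure of cardiac muscle cells. After an infarct, muscle at a distance from the scar also remodels, with fibroblast activation, matrix deposition and a return of fetal genes such as those of the natriuretic peptides. The comparison asks what the larger dose of GGF2 left in the RNA of that remote muscle. ERBB2, ERBB3, ERBB4 and NRG1 had no probe set that carried their symbol alone and are not analysed here.

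The tissue carried the RNA of working ventricular muscle on every array: of 18 cardiomyocyte markers 15 were measured, all above the arrays' lower quartiles of 3.72 to 3.80, below which values were taken as close to background. MYH7, the slow myosin heavy chain, lay between 14.77 and 14.89 on the 5 arrays. Across probe sets the high-dose arrays correlated with the untreated ones at 0.983 to 0.989, and with each other at 0.992. Control probe sets for the 3' end exceeded those for the 5' end, a gap that widens with RNA degradation, by 3.11 ± 0.23 in the 3 untreated animals (SD, n = 3) and by 3.02 ± 0.03 in the high-dose pair (SD, n = 2). By the pig numbers in the labels, the 2 high-dose animals were neighbours, and so were untreated replicates 1 and 3, while untreated replicate 2 had a number next to that of low-dose replicate 1. What the numbers reflect is not stated. No untreated animal had a number next to the high-dose pair, so an effect of pig origin or order cannot be told apart from the dose in any comparison below. In bulk tissue, fewer cells of a type and less RNA per cell cannot be told apart.

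No probe set passed the test. The count at a limma adjusted p under 0.05 was 0 of 23999 (percent called 0.0), the smallest adjusted p was 0.0505, and 1913 probe sets (7.97%) had an unadjusted p under 0.05. This count depended on the fit: 70 probe sets passed with a covariate that marks untreated replicate 2 and low-dose replicate 1, 55 without both of these animals and 13 with array weights. That covariate marked this neighbouring pair only, and neither untreated replicates 1 and 3 nor the high-dose pair. Of the genes named below, AREG, CCL2, CENPH, CYR61, EGR1, FAM46A, FOS, GADD45B, HSP70.2, IER5, KLF15, MYOCD, NFIL3, OAZ1, PCLAF, PLK2, POSTN, PTTG1, SLC25A5 and THBD passed in at least 1 alternative. The differences below are therefore given as levels in each animal and as counts of genes whose groups were separated, meaning that both high-dose values lay on the same side of all 3 untreated values and the means differed by at least 1.5-fold. Of all probe sets, 314 (1.31%) were separated and higher at the high dose and 567 (2.36%) were separated and lower. With 1 probe set for each of 6765 genes, 103 (1.52%) were separated and higher and 190 (2.81%) separated and lower, and the median difference over these genes was 0.02. Taken without a fold limit, 29.0% of these genes had no overlap between groups, and 53.8% had a higher and 46.2% a lower mean. Counts of separated probe sets rested on the number of animals: 1614 were separated in either direction without untreated replicate 2 and 1772 without high-dose replicate 2, against 881 (3.67%) with all 5 arrays.

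**Figure D1:**
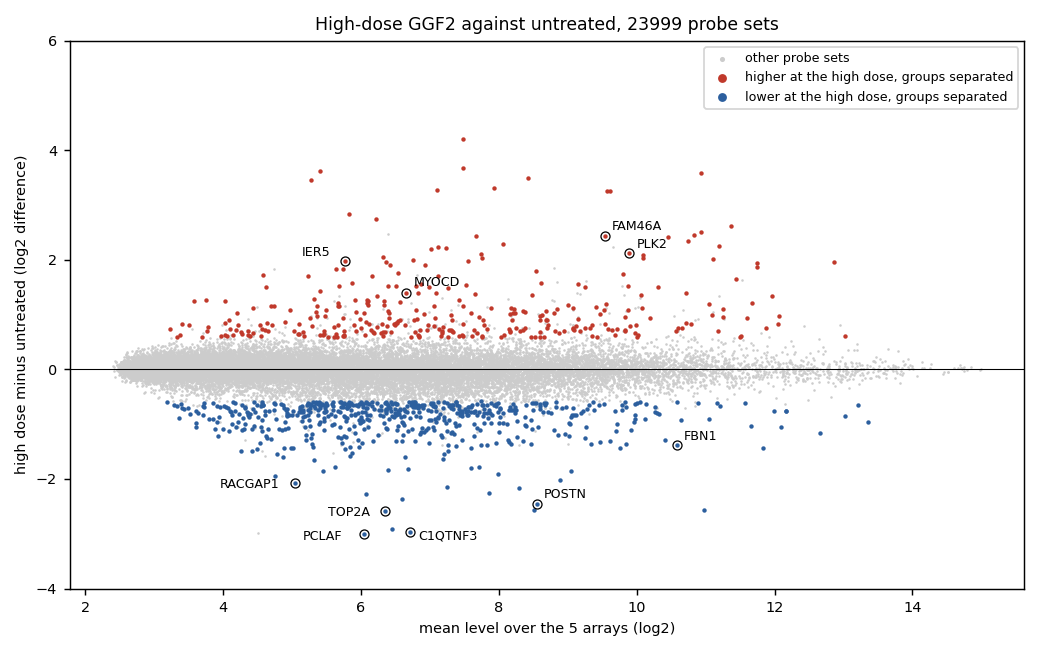
Difference between the high-dose and untreated means (log2, vertical) against the mean level over the 5 arrays (log2, horizontal) for 23999 probe sets. Red points (314) are probe sets higher at the high dose with separated groups, blue points (567) are lower with separated groups, and 10 named genes are circled.

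The smallest adjusted p was shared by 7 probe sets, of which 6 have no gene symbol in the annotation used here and 5 were lower at the high dose. The named one is MYOCD, the gene of myocardin, a coactivator of serum response factor in cardiac and smooth muscle. MYOCD measured 6.06, 6.15 and 6.09 in the untreated animals and 7.71 and 7.29 at the high dose. Both high-dose animals stood more than 1 log2 unit above a tight untreated group, and the 3 low-dose animals, at 6.16, 6.01 and 6.36, lay with the untreated ones. The difference was 1.40 ± 0.16 (SE), or 2.64-fold (limma adjusted p = 0.0505, and 0.0197 to 0.407 over the alternatives). Among the 5 lower ones, the widest difference was -2.91, with 8.17, 7.39 and 7.29 in untreated animals against 4.47 and 4.95 at the high dose. The only higher one without a symbol differed by 3.46, with untreated values of 3.77, 4.11 and 3.79 near background and high-dose values of 7.48 and 7.21.

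High-dose animals had lower levels of cell division genes than untreated ones. Of 24 measured genes of mitosis and cytokinesis, 24 were lower, 14 were separated and lower where 2.81% of all genes were, and the list median was -0.77. PCLAF, from the list of DNA replication genes, a factor bound to the sliding clamp while DNA is copied, measured 8.01, 6.97 and 6.76 in untreated animals and 4.54 and 3.95 at the high dose, a difference of -3.01 ± 0.38 (SE; limma adjusted p = 0.0790). The gap between the groups was wide even though untreated replicate 1 stood above the other two untreated animals, and the second high-dose value lay near background. TOP2A, the topoisomerase that untangles chromosomes in dividing cells, measured 7.94, 7.16 and 7.07 in untreated animals and 4.78 and 4.83 at the high dose (-2.58 ± 0.37; limma adjusted p = 0.141). Here the high-dose pair agreed within 0.1 log2 units, and the 3 low-dose animals lay between the groups, at 6.26, 7.01 and 5.71.

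Genes that hold and part the chromosomes showed the same order, with tighter untreated groups for PTTG1 and CENPH. PTTG1, the securin that keeps sister chromatids together until anaphase, measured 6.73, 6.37 and 6.30 in untreated animals and 5.15 and 5.23 at the high dose (-1.28 ± 0.15; limma adjusted p = 0.0573). CENPH, a protein of the inner kinetochore, measured 6.76, 6.16 and 6.53 against 4.85 and 5.08 (-1.52 ± 0.18; limma adjusted p = 0.0634). In both genes the highest high-dose value stood about 1 log2 unit below the lowest untreated value. RACGAP1, which helps to place the cleavage furrow, measured 6.42, 5.90 and 5.31 against 3.79 and 3.81, the latter at the edge of background. CCNB1, the mitotic cyclin B1, named here after its values were seen, was lower by 3.60-fold, with 6.96, 5.93 and 5.70 against 4.20 and 4.49.

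Replication genes were also lower but by less: all 14 measured members of the DNA replication list were lower, 2 of them were separated (PCLAF and RRM2), and the median was -0.25. RRM2, the small subunit of the enzyme that makes deoxyribonucleotides, measured 6.05, 5.39 and 4.95 in untreated animals and 3.92 and 4.13 at the high dose (limma adjusted p = 0.224). The low-dose animals were as low for RRM2, at 3.98, 4.15 and 4.17. Over the replication list the median was -0.26 for low dose against untreated and -0.05 for high dose against low dose. Its lower level was thus not particular to the high dose. PCNA, the sliding clamp of the replication fork, differed by -0.58 ± 0.16, and FEN1, which trims Okazaki fragments, by -0.43 ± 0.12, both with no overlap between groups but under 1.5-fold. Without a fold limit, 29.0% of all genes had no overlap. Untreated replicate 1 was the highest untreated animal in 22 of the 24 mitosis genes. Without this animal the median of the mitosis list was -0.50.

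**Figure D2:**
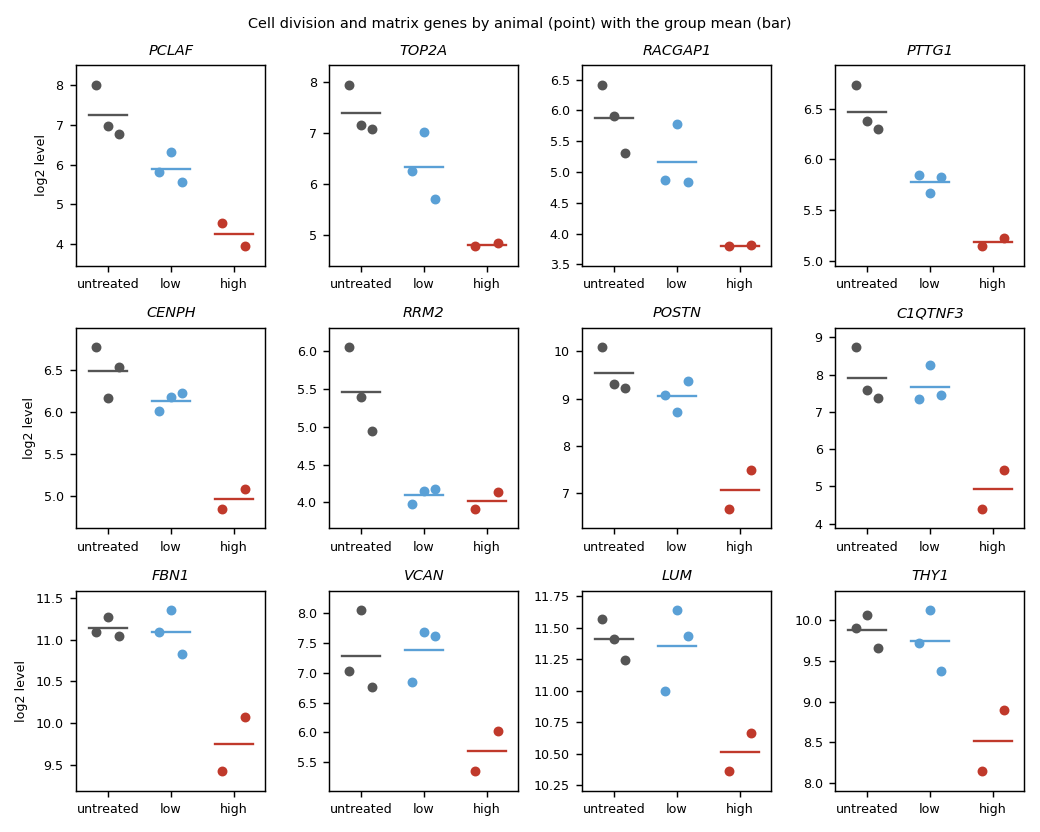
Level in each animal (log2, vertical; each panel has its own range) for 6 cell division and replication genes and 6 genes of matrix and fibroblasts; grey points are untreated, light blue low-dose and red high-dose animals, and bars are group means. In each panel both high-dose points lie below the 3 untreated points; for RRM2 the low-dose animals lie beside the high-dose ones.

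Genes of fibroblasts and of the matrix they secrete were lower at the high dose. Of 11 measured fibroblast markers 9 were lower, 6 were separated and lower and 1 was separated and higher, with a median of -0.74. Over all genes 2.81% were separated and lower and 1.52% separated and higher. On the myofibroblast list 8 of 9 measured genes were lower and 3 separated, with a median of -0.20. POSTN, from that list, the gene of periostin, a matrix protein of activated fibroblasts, measured 10.08, 9.30 and 9.23 in untreated animals and 6.68 and 7.48 at the high dose, a 5.48-fold lower mean (limma adjusted p = 0.104). C1QTNF3, on none of the lists, a secreted protein of the C1q and tumour necrosis factor family, measured 8.73, 7.60 and 7.36 against 4.40 and 5.44, a 7.87-fold lower mean (limma adjusted p = 0.141). In both genes the high-dose animals differed from each other by about 1 log2 unit, high-dose replicate 1 being the lower, and neither reached the untreated range. FBN1, the main protein of microfibrils, measured 11.09, 11.27 and 11.04 against 9.43 and 10.07 (-1.39 ± 0.22), and its less bright probe set differed by -1.38.

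Surface and matrix genes of resident fibroblasts followed the same order. THY1, a surface glycoprotein of fibroblasts, measured 9.90, 10.06 and 9.66 in untreated animals and 8.14 and 8.89 at the high dose on its brightest probe set, and differed by -0.93 on the probe set of smaller error but by 0.02 on another, dimmer one. LUM, the collagen-binding proteoglycan lumican, measured 11.57, 11.41 and 11.24 against 10.36 and 10.66 (-0.90 ± 0.20; limma adjusted p = 0.337). FAP, on the myofibroblast list, a surface protease of activated fibroblasts, measured 7.75, 8.18 and 7.69 against 6.85 and 7.21 (-0.84 ± 0.19). These 3 genes had separated groups, with replicate 2 the higher of the high-dose pair in each. DPT, a matrix protein that binds decorin, and DCN, decorin itself, were separated as well, at -1.06 ± 0.30 and -0.77 ± 0.28. In 10 of the 11 fibroblast markers high-dose replicate 2 stood above replicate 1, and untreated replicate 2 was the highest untreated animal, also in 10. The list mean per animal, centred on 0 over the 8 animals, was -0.56 and -0.21 at the high dose and 0.07, 0.49 and -0.22 in the untreated animals, so that high-dose replicate 2 and untreated replicate 3 were level. Without high-dose replicate 1 the median of the fibroblast list was -0.38, and with the mean of each gene's probe sets it was -0.45. The myofibroblast median was -0.04 without untreated replicate 2, -0.38 without high-dose replicate 2 and -0.62 with dim probe sets left out. Whether fewer fibroblasts or other cells lay in the sampled tissue was not tested.

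Among the matrix lists the microfibril genes had the lowest median, -0.47 over 6 genes, all 6 of them lower and 2 separated; with the mean of each gene's probe sets it was -0.31. Collagens had a median of -0.39 over 9 genes, with 3 separated and lower and 1 separated and higher. Of all genes 2.81% were separated and lower and 1.52% separated and higher. COL8A1, a short-chain network collagen, was lower by 2.13-fold on its brightest probe set (7.07, 6.66 and 6.73 against 6.05 and 5.41), with differences of -0.06 and -0.09 on dimmer ones. COL15A1, a collagen at the rim of basement membranes, measured 11.29, 11.08 and 11.03 against 10.29 and 10.75, and COL6A3, of beaded collagen filaments, differed by -0.69 ± 0.28. The fibrillar collagen COL3A1 was separated and higher, with 5.79, 6.42 and 5.16 in untreated animals and 6.53 and 6.70 at the high dose. Its groups were apart by 0.12, and it is also the separated and higher gene of the fibroblast list. The collagen median was -0.20 without high-dose replicate 1 and -0.16 with the mean of each gene's probe sets.

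Of 13 measured proteoglycan and hyaluronan genes 10 were lower, with a median of -0.25. Separated and lower were 4 of them, where 2.81% of all genes were. VCAN, the large hyaluronan-binding proteoglycan versican, measured 7.04, 8.06 and 6.76 in untreated animals and 5.34 and 6.03 at the high dose, a 3.03-fold lower mean (limma adjusted p = 0.384). The groups were apart by less than the spread among the untreated animals themselves, where replicate 2 was highest. Dimmer probe sets of VCAN above background differed by -1.36 and -0.01. SPARC, a collagen-binding glycoprotein, measured 13.40, 13.60 and 13.08 against 12.17 and 12.85, and FN1, fibronectin, measured 10.00, 10.82 and 9.62 against 8.90 and 9.15. A much dimmer probe set above background differed by -0.01 for SPARC and by 0.07 for FN1. Members of the basement membrane differed by -0.63 ± 0.16 for the laminin chain LAMB1 and by -0.71 ± 0.25 for NID2, a linker of laminin and collagen, whose groups overlapped. On a dimmer probe set LAMB1 differed by -0.23 with overlapping groups. The proteoglycan median was -0.11 without untreated replicate 2, -0.42 without high-dose replicate 2 and -0.49 with dim probe sets left out.

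The matricellular list held genes of both directions. POSTN, SPARC and FN1 were on its lower side, while CYR61, a matricellular protein that early growth signals induce, measured 9.85, 9.93 and 9.37 in untreated animals and 11.20 and 11.24 at the high dose, a 2.84-fold higher mean. The list median of -0.32 over 13 genes became -0.04 without untreated replicate 2 and -0.05 without high-dose replicate 1, but -0.50 without untreated replicate 1 and -0.63 without high-dose replicate 2. It was -0.20 with a covariate for RNA integrity and -0.15 with the mean of each gene's probe sets. Among matrix proteases, the lysosomal cathepsins CTSS and CTSK and the gelatinase MMP2 were separated and lower by 1.55-fold, 1.63-fold and 1.55-fold. ADAMTS1, a secreted protease that cleaves versican, was separated and higher by 2.18-fold, with 9.59, 10.16 and 9.14 against 11.05 and 10.47. LOXL1, which cross-links elastic fibres, was lower by 1.84-fold with 6.66 in high-dose replicate 2 against 6.72 in untreated replicate 3. TGFBR1, the type I receptor of transforming growth factor beta, differed by -0.47 ± 0.13, and the median over 16 genes of that signalling family was -0.05, with 0 separated, or -0.16 without high-dose replicate 2.

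Macrophage markers were lower in both high-dose animals. Of 14 measured markers 10 were lower, 5 were separated and lower where 2.81% of all genes were, and the median was -0.42. LAPTM5, a lysosomal membrane protein of blood cells, measured 7.66, 7.96 and 7.74 in untreated animals and 6.97 and 6.99 at the high dose (-0.80 ± 0.16; limma adjusted p = 0.269). MRC1, the mannose receptor of tissue macrophages, measured 7.79, 8.12 and 7.41 against 6.79 and 6.41 (-1.17 ± 0.28; limma adjusted p = 0.383). In these genes both high-dose values lay below every untreated and every low-dose value. The scavenger receptor CD163 and the complement chain C1QC were separated at -0.93 ± 0.30 and -0.96 ± 0.32. A dimmer probe set of CD163 differed by -0.45, and its groups overlapped. Without high-dose replicate 2, the lower of the pair for most of these markers, the list median was -0.25.

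Lists of markers of other cell types had medians closer to 0 or few measured members. Over 4 erythrocyte genes the median was -0.24, or -0.05 without high-dose replicate 2, and 1 was separated and lower, ALAS2, the first enzyme of haem synthesis in red cells (-0.60 ± 0.15). Over 16 endothelial markers the median was -0.05, or -0.23 with dim probe sets left out, with 1 separated, FABP4, a fatty acid binding protein of capillaries and fat cells (-0.61 ± 0.18). PECAM1, an adhesion molecule of endothelial junctions, differed by -0.57 ± 0.20, the transcription factor ERG by -0.54 ± 0.17 and the angiopoietin receptor TEK by -0.53 ± 0.21, each with no overlap between groups. Of the 16 endothelial markers, however, 7 were higher and 9 lower. At any fold, 3 of them had no overlap and were higher and 5 had none and were lower, where 29.0% of all genes had no overlap. Lymphocyte markers had a median of -0.02 over 11 genes with 0 separated, ranging from 0.06 without high-dose replicate 1 to -0.08 without replicate 2, and cardiomyocyte markers a median of 0.04 over 15 genes. Among 9 smooth muscle and pericyte markers the members diverged: CNN1, smooth muscle calponin, was higher by 3.97-fold (6.00, 6.89 and 4.97 against 8.43 and 7.46) and RGS5, a signalling regulator of pericytes, lower by 1.90-fold (11.52, 10.94 and 10.57 against 9.61 and 10.56). Of 7 measured neutrophil markers 1 exceeded background.

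**Figure D3:**
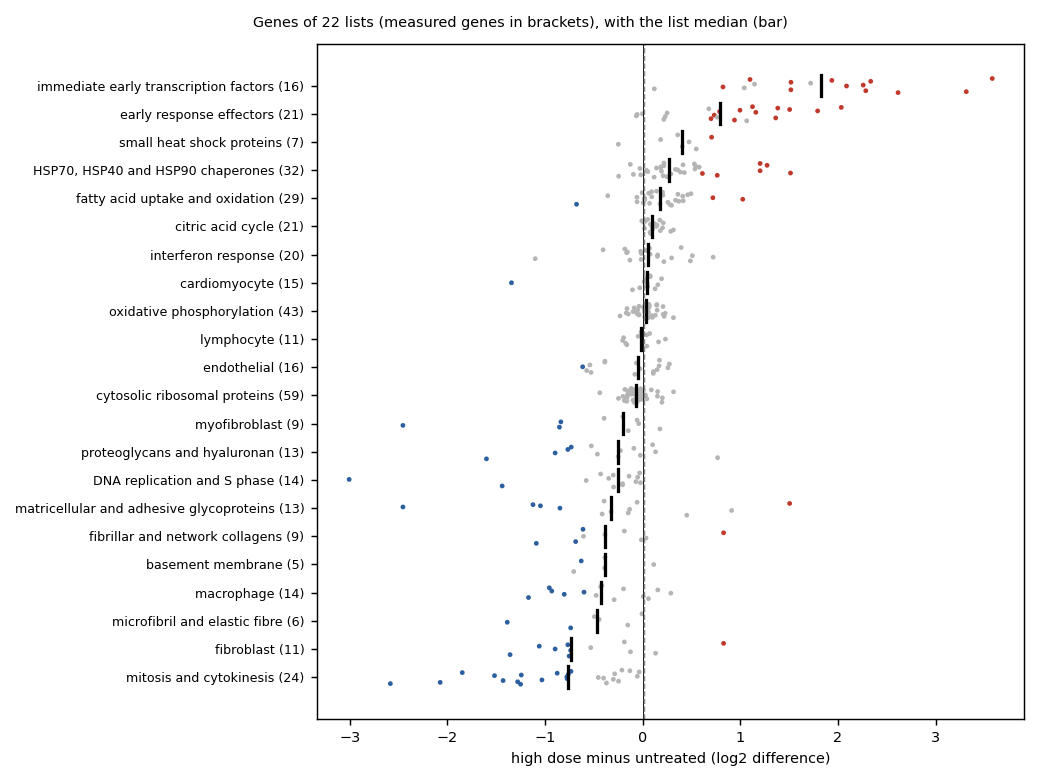
Difference between high dose and untreated (log2, horizontal) for each measured gene of 22 lists, 1 probe set a gene; red and blue points are genes with separated groups that were higher or lower, black bars are list medians and the dashed line is the median over 6765 genes (0.02). Medians run from 1.83 for immediate early transcription factors to -0.77 for mitosis and cytokinesis.

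Immediate early genes are transcribed soon after a growth signal or stress and need no newly made protein; of the 71 lists examined, theirs had the highest median. All 16 measured transcription factors of this class were higher, 12 were separated and higher where 1.52% of all genes were, and the median was 1.83. NR4A2, an orphan nuclear receptor, measured 6.26, 7.48 and 6.08 in untreated animals and 10.38 and 9.47 at the high dose, a difference of 3.31 ± 0.67 (SE; limma adjusted p = 0.260). FOS, a subunit of the AP-1 factor, measured 9.03, 10.81 and 9.59 against 12.25 and 12.05 (2.34 ± 0.68; limma adjusted p = 0.420). With the covariate for untreated replicate 2 and low-dose replicate 1, the limma adjusted p of FOS was 0.0345, the lowest of its alternatives, which reached up to 1.00. For both genes untreated replicate 2 was the highest of the untreated animals and still stood below the high-dose pair. The covariate sets this animal apart, so a smaller p for FOS is partly built in. IER5, an early gene that acts on heat shock factor, measured 8.68, 10.29 and 8.79 against 11.34 and 11.35, and its dimmer probe set with the smallest p differed by 1.97 ± 0.29 (limma adjusted p = 0.141). KLF4, a zinc finger factor of vessel walls and stressed cells, measured 9.02, 9.84 and 8.94 against 11.02 and 10.54.

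These genes varied strongly among animals that had no high dose. Untreated replicate 2 was the highest untreated animal in 14 of the 16. EGR1 and ATF3, growth and stress response factors named here after their values were seen, make this plain. EGR1 measured 10.05, 12.70 and 10.17 in untreated animals and 12.97 and 12.86 at the high dose, so that untreated replicate 2 was within 0.2 log2 units of the lower high-dose animal. ATF3 measured 8.55, 11.37 and 8.59 in untreated animals and 13.12 and 13.05 at the high dose, with 11.63, 7.64 and 11.57 at the low dose. Centred in the same way, the immediate early list mean was 1.35 and 1.07 at the high dose, -1.19, 0.48 and -1.18 in untreated animals and 0.54, -1.16 and 0.08 at the low dose. Thus untreated replicate 2 and low-dose replicates 1 and 3 lay between the high-dose pair and the other animals. The part of tissue handling, infusion timing or pig of origin in this variation was not tested. Without untreated replicate 2, 19 probe sets passed at a limma adjusted p under 0.05, of which 10 were higher.

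**Figure D4:**
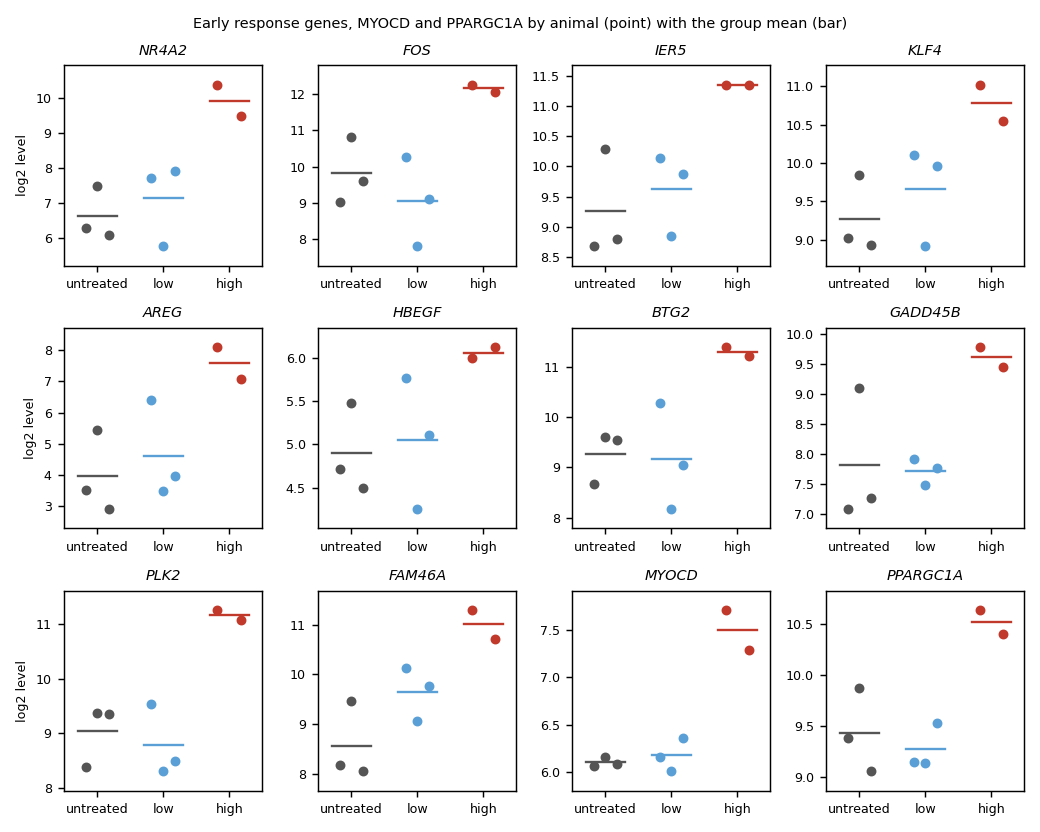
Level in each animal (log2, vertical; each panel has its own range) for 10 genes grouped here as early response genes, MYOCD and PPARGC1A; grey points are untreated, light blue low-dose and red high-dose animals, and bars are group means. Of these 10, PLK2 and FAM46A are on none of the lists, and AREG and HBEGF are on that of ERBB receptors, ligands and feedback. Both high-dose points lie above all others in each panel, and the second grey point is raised over its group in most of the 10 genes but not in MYOCD.

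Among ligands of the epidermal growth factor receptor family, AREG and HBEGF were higher. AREG, amphiregulin, which binds EGFR, measured 3.50, 5.44 and 2.91 in untreated animals and 8.09 and 7.07 at the high dose, a difference of 3.63 ± 0.94 (SE; limma adjusted p = 0.384). For AREG the same covariate gave a limma adjusted p of 0.0135, the lowest of its alternatives, which reached up to 1.00. That covariate sets apart untreated replicate 2, the highest untreated animal for AREG, so a smaller p is partly built in. As untreated replicates 1 and 3 were at background, the size of the AREG difference is not exact. HBEGF, heparin-binding EGF, which binds EGFR and ERBB4, measured 4.71, 5.47 and 4.50 against 5.99 and 6.12 (1.16 ± 0.42; limma adjusted p = 0.526). Low-dose replicate 1 was the closest to the high-dose pair for both ligands, at 6.39 and 5.77. EGFR itself measured 6.50, 7.09 and 6.43 in untreated animals and 6.11 and 6.42 at the high dose. Of 8 measured genes of ERBB receptors, ligands and feedback, 2 were separated and higher, these 2 ligands, where 1.52% of all genes were. The list median was -0.06, or -0.29 with dim probe sets left out. DUSP1, a phosphatase that switches off MAP kinases, was separated and higher by 2.00-fold, and the other 6 measured genes of the MAP kinase list were not separated.

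Several genes known to slow the cell cycle were higher at the high dose. Of 12 measured cell cycle inhibitors and G1 genes 4 were separated and higher and 1 was separated and lower, where 1.52% and 2.81% of all genes were. At any fold 8 of them were higher and 4 lower, and the list median was 0.13. BTG2, an antiproliferative partner of mRNA deadenylation, measured 8.68, 9.61 and 9.55 in untreated animals and 11.39 and 11.23 at the high dose (2.03 ± 0.53; limma adjusted p = 0.400). GADD45B, a growth arrest and stress sensor, measured 7.08, 9.10 and 7.27 against 9.77 and 9.45, and GADD45A differed by 1.21 ± 0.58 with 12.14 in untreated replicate 2 against 12.17 in high-dose replicate 1. TOB1, a relative of BTG2, measured 9.14, 8.72 and 8.99 against 9.65 and 9.78 (0.76 ± 0.14; limma adjusted p = 0.215). For TOB1, which is on none of the lists, untreated replicate 2 was the lowest animal. PLK2, also outside the lists, a kinase induced by stress, measured 8.39, 9.37 and 9.36 against 11.25 and 11.07 (2.12 ± 0.40; limma adjusted p = 0.224). CCNG2, an atypical cyclin of resting cells, was the separated gene that was lower (-0.70 ± 0.27).

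Over the early response effectors as a whole, 18 of 21 measured genes were higher, with a median of 0.79. Separated and higher were 12 of them, where 1.52% of all genes were. Untreated replicate 2 was the highest untreated animal in 18 of the 21, and without it the list median was 1.16. RND3, an atypical GTPase that opposes actin stress fibres, measured 9.53, 9.55 and 9.46 in untreated animals and 10.56 and 11.20 at the high dose on its brightest probe set (1.36 ± 0.29; limma adjusted p = 0.313). Its dimmer probe sets differed by 1.35, -0.05 and 0.14. SGK1, a kinase induced by glucocorticoids and growth signals, had an untreated mean of 8.90 ± 0.09 (SD, n = 3) against high-dose values of 9.59 and 9.61. For RND3 and SGK1, unlike much of this list, the untreated animals agreed closely, replicate 2 included. FAM46A, a nucleotidyltransferase on none of the lists, measured 8.17, 9.47 and 8.05 against 11.30 and 10.72, and the low-dose animals, at 10.12, 9.07 and 9.76, lay between. CCL2, the monocyte chemoattractant, was separated and higher by 2.61-fold, while the macrophage marker list had a median of -0.42. KLF15, a glucocorticoid-induced factor of cardiac metabolism, was separated and lower, with 7.85, 6.83 and 7.49 against 6.11 and 6.45. NFIL3, a repressor in the circadian clock, was separated and higher by 2.11-fold, and 6 of 7 clock genes were higher with a median of 0.32, or 0.53 without untreated replicate 2.

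Chaperone genes were higher by small steps. Of 32 measured genes of the HSP70, HSP40 and HSP90 families 27 were higher, with a median of 0.27. Separated and higher were 6 of them, where 1.52% of all genes were. HSPA6, a strictly inducible HSP70, measured 5.52, 6.12 and 5.73 in untreated animals and 6.83 and 7.78 at the high dose (1.51 ± 0.28; limma adjusted p = 0.215). HSPH1, a partner that reloads HSP70, measured 8.29, 8.18 and 7.75 against 8.93 and 8.75, and HSPA8, the constitutive HSP70, 12.74, 12.91 and 12.68 against 13.55 and 13.22. Much dimmer probe sets of HSPA8 differed by -0.15, -0.18 and -0.09. HSP70.2, an inducible pig HSP70 with near-identical relatives whose probes may be shared, differed by 1.01 ± 0.17 on the probe set with the smallest p and by 0.54 ± 0.26 on the brightest, where untreated replicate 2 reached the high-dose level. Among 7 small heat shock proteins 6 were higher with a median of 0.41, and HSPB1, which guards actin filaments, was separated (0.71 ± 0.20). CRYAB, the small chaperone of desmin and titin, differed by 1.52 ± 0.27 on a dim probe set and by 0.36 ± 0.18 on the bright one, where values were close to 13 in every animal.

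Most genes of fatty acid use had a higher mean at the high dose. Of 29 measured genes of fatty acid uptake and oxidation 24 were higher against 53.8% of all genes, and the median was 0.18. Among these 29, 2 were separated and higher and 1 separated and lower, against 1.52% and 2.81% of all genes. ECH1, an auxiliary enzyme for unsaturated fatty acids, measured 9.58, 9.23 and 9.27 in untreated animals and 10.30 and 9.86 at the high dose. ECI2, which shifts double bonds for the same purpose, measured 8.47, 7.67 and 9.03 against 9.60 and 9.23. ACADVL, the first dehydrogenase of long-chain oxidation, differed by 0.49 ± 0.15 on its brightest probe set and by 1.02 on a dimmer one, and ETFDH, which passes the electrons on to the respiratory chain, by 0.42 ± 0.14 and 0.59. High-dose replicate 1 was above replicate 2 in 20 of the 29 genes, and without it the median was 0.08. Of 21 citric acid cycle genes 20 were higher with a median of 0.10 and 0 were separated. Over 43 genes of oxidative phosphorylation the median was 0.03, also with 0 separated.

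Of 19 measured regulators of energy metabolism 2 were separated and higher and 1, KLF15 (-1.11 ± 0.38), separated and lower, with a median of 0.09. The shares over all genes were 1.52% separated and higher and 2.81% separated and lower. SIRT3, the main deacetylase of mitochondria, measured 7.97, 7.88 and 7.81 in untreated animals and 8.67 and 8.49 at the high dose (0.69 ± 0.13; limma adjusted p = 0.202). PPARGC1A, the coactivator PGC-1 alpha that drives mitochondrial biogenesis, measured 9.38, 9.87 and 9.06 against 10.63 and 10.40 (1.08 ± 0.23; limma adjusted p = 0.333). Both high-dose animals exceeded all 6 other animals for PPARGC1A, and the low-dose values of 9.15, 9.14 and 9.54 lay within the untreated range. SLC25A5, an ADP/ATP carrier of the inner mitochondrial membrane, was separated and higher by 2.04-fold, and BCKDHA, of branched-chain amino acid breakdown, by 1.51-fold. MTHFD2, a mitochondrial folate enzyme of growing cells, was separated and lower, with 7.50, 7.55 and 7.70 against 6.70 and 6.59 (-0.93 ± 0.17; limma adjusted p = 0.215). Among antioxidant genes GPX3, the secreted glutathione peroxidase, was separated and higher by 1.79-fold, and TXNIP, which binds thioredoxin, separated and lower by 1.57-fold. GPX1, the cytosolic peroxidase, measured 9.48, 9.99 and 9.93 in untreated animals but 6.77 in high-dose replicate 1 and 9.10 in replicate 2, so its low mean rested on the first of these.

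The contractile machinery itself showed little difference. Over 21 measured sarcomere genes the median was 0.03 and 1 was separated: TNNI1, the slow skeletal troponin I that the fetal heart uses, which was higher by 1.62-fold (5.18, 5.44 and 5.81 against 5.86 and 6.48). Natriuretic peptide genes, which stretched heart muscle turns up, were lower. NPPB, the gene of B-type natriuretic peptide, measured 9.09, 8.77 and 8.41 in untreated animals and 6.21 and 6.80 at the high dose, a 4.77-fold lower mean (limma adjusted p = 0.392), while the low-dose animals ranged from 7.32 to 9.77. NPPA, the gene of the atrial peptide, measured 8.45, 8.59 and 8.45 against 8.21 and 6.09, so that high-dose replicate 1 lay just under the untreated range and replicate 2 far below it. SLN, sarcolipin, an inhibitor of the calcium pump, measured 4.80, 4.56 and 5.35 against 6.84 and 6.64 (1.84 ± 0.50; limma adjusted p = 0.403), and low-dose replicate 3, at 7.25, was higher still.

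Of 10 measured cardiac transcription factors and coactivators MYOCD was separated and higher and HOPX, a small homeodomain protein named here after its values were seen, separated and lower (5.93, 6.76 and 5.20 against 5.16 and 5.08). GATA4 and TEAD1, factors of the heart muscle programme, differed by 0.30 ± 0.13 and 0.32 ± 0.13, and the list median was 0.13. Targets of serum response factor, which myocardin activates, were divided: of 21 measured, 11 were higher and 10 lower, with 3 separated and higher, 2 separated and lower and a median of 0.00. Among all genes 1.52% were separated and higher and 2.81% separated and lower. The widest difference among these targets, 2.34, was that of FOS, which is also on the immediate early list and is 1 of the 3 separated and higher. CNN1 and SMTN, smooth muscle proteins, differed by 1.99 ± 0.62 and 0.43 ± 0.11, SMTN being under 1.5-fold and so not separated. ACTG2, a smooth muscle actin, and CALD1, caldesmon, were separated and lower at -0.98 ± 0.32 and -0.77 ± 0.28. A dimmer probe set of ACTG2 differed by -0.27 and was not separated. SYNM, the intermediate filament protein synemin of the Z-disc list, measured 10.46, 10.56 and 10.05 in untreated animals and 10.99 and 11.23 at the high dose. The epithelial keratin KRT8 measured 5.89, 5.66 and 5.36 against 6.58 and 5.84, which overlap, with higher values at the low dose of 8.37, 7.39 and 7.80.

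Further named genes lay outside these groups. DAP, a mediator of cell death that also restrains autophagy, measured 7.40, 7.48 and 7.37 in untreated animals and 8.30 and 8.32 at the high dose (limma adjusted p = 0.190), with the low-dose animals between them at 7.91, 8.16 and 7.63. C8G, a chain of complement component 8, measured 5.02, 4.80 and 4.84 against 5.75 and 5.90, while its second probe set differed by 0.06. LAP3, a leucine aminopeptidase, differed by 1.02 ± 0.19 on the probe set with the smallest p and by 0.54 ± 0.21 on the brightest. IREB2, which senses iron and controls its uptake, measured 6.29, 6.15 and 6.28 against 5.46 and 5.35, and the low-dose animals were as low, at 5.67, 5.32 and 5.60. LOC100624077 measured 10.00, 10.30 and 9.71 against 8.68 and 8.68. OAZ1, an inhibitor of polyamine synthesis, measured 12.25, 11.44 and 12.30 against 8.71 and 10.14 on the probe set with the smallest p, but its other, similarly bright probe set differed by 0.02. Of 24 measured complement and coagulation genes 13 were higher and 11 lower, and the median was 0.02, or 0.25 without untreated replicate 2. In each direction 3 were separated, where 1.52% of all genes were separated and higher and 2.81% separated and lower. On the higher side, beside C8G, was THBD, thrombomodulin, at 0.94 ± 0.34. On the lower side were CD55, which shields cells from complement, at -1.12 ± 0.26, with high-dose replicate 1 at background, and PROS1, protein S, at -0.79 ± 0.23. IGFBP2, a carrier of insulin-like growth factors, was separated and lower by 2.29-fold.

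The same high-dose animals were also set against the 3 low-dose animals. In that test 6 of 23999 probe sets (0.025%) passed at a limma adjusted p under 0.05, none of them with a gene symbol. No probe set passed with only the low- and high-dose arrays, with a covariate for RNA integrity, or without any single one of high-dose replicate 1, low-dose replicates 2 and 3 and untreated replicates 1 and 3. MYOCD was 1.33 above the low dose (limma adjusted p = 0.0591). Differences against the low dose were -1.97 for POSTN, -1.34 for FBN1, 2.38 for PLK2 and 2.79 for NR4A2, while RRM2 at -0.08 and KRT8 at -1.64 stood at or below the low-dose level. Both comparisons share the 2 high-dose arrays. Over the lists, the median of mitosis genes was -0.77 against untreated and -0.29 against low dose, and that of replication genes -0.25 and -0.05. For fibroblast markers the medians were -0.74 and -0.68, and for immediate early factors 1.83 and 1.24.

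**Figure D5:**
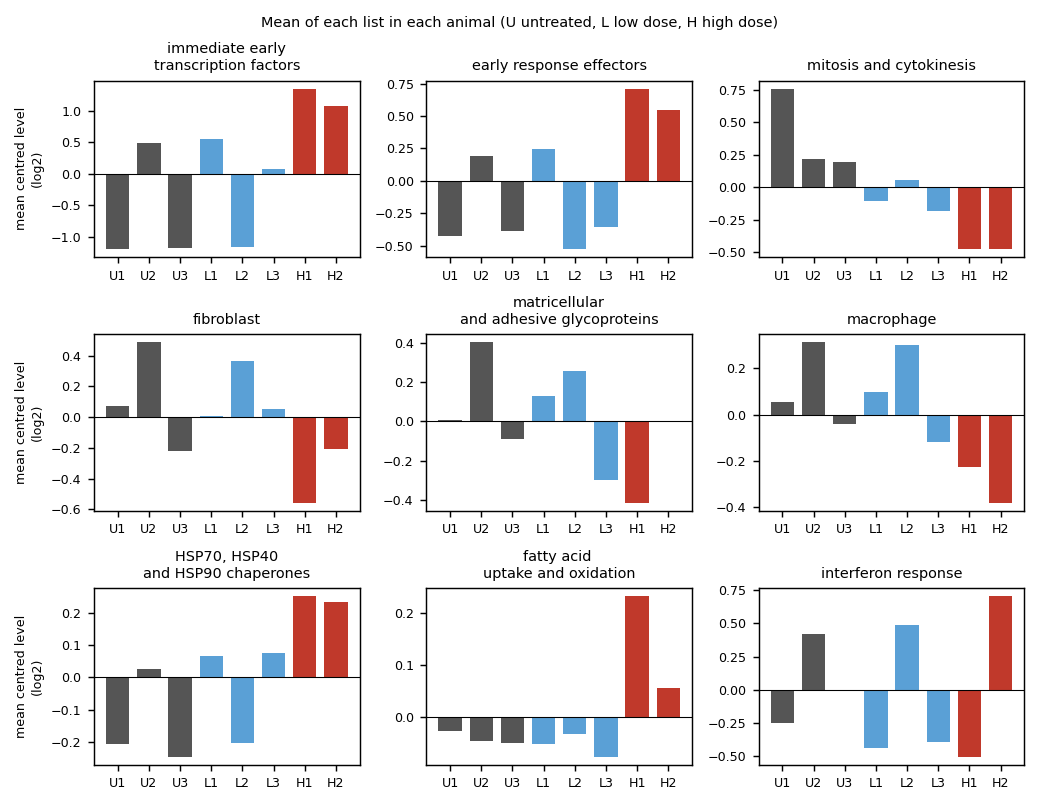
Mean level of 9 gene lists in each animal (log2, vertical), with every gene set to a mean of 0 across the 8 animals beforehand; U, L and H mark untreated, low-dose and high-dose animals by replicate number, and each bar is 1 animal. For immediate early factors H1 and H2 stand at 1.35 and 1.07 with U2 and L1 as the next highest at 0.48 and 0.54, mitosis genes are highest in U1 at 0.76, and the interferon bars of H1 and H2 point in opposite directions.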

How the data were processed

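The authors deposited log2 expression values of 24123 probe sets for 8 arrays; per the submitters' processing notes RMA and Partek 6.6 were used, with no settings stated. RMA makes the arrays' distributions alike, so a shift shared by most genes would be lost. Per the labels' protocols, total RNA was extracted with Trizol and hybridised as biotin-labelled cRNA. After 124 control probe sets were left out, a model with a mean for every one of the 3 groups was fitted to all 8 arrays by limma 3.58.1 (R 4.3.3; 5 residual and 3.50 prior degrees of freedom), with Benjamini-Hochberg adjustment over 23999 probe sets; tables and figures were made in Python 3.11.15, and the fit was tested on simulated data. Replicate numbers follow the order of the samples in the series. Each label names another pig, so p-values measure the spread between animals. Arrays have no read depth, and their number limits the precision. An exact permutation test of 2 against 3 animals cannot go below p = 0.2 (two-sided), so none was used.

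Symbols came from the platform annotation: 10069 probe sets carried 1, 198 several and 13732 none. The 71 gene lists used each gene's brightest probe set, and some genes, such as COL3A1 and POSTN, are on more than 1 list. Named genes were, in each direction, the 12 with the smallest p among separated probe sets whose higher group had a mean above the median of all values, so that a gene dim in the other group could qualify, up to 4 of each list by p and a few set genes; genes beyond this rule are marked. The members and lists were chosen with earlier results of these data known. Sequences were not used here. Alternatives were median centring, removal of dim probe sets, an intensity trend or robust prior, repeated quantile normalization, fits of only the compared groups, array weights, covariates for RNA integrity or pig number, other thresholds, averaging the probe sets of each gene, and leaving out each array.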

Additional observations from a re-analysis of the deposited data

Results flagged for a closer look

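In the test of high dose against low dose 6 probe sets passed (limma adjusted p from 0.0378 to 0.0431), and each drew attention because the 2 treated groups differed. All of these calls were lost with only the low- and high-dose arrays, with a covariate for RNA integrity and without any of 5 single animals. None carries a gene symbol in the annotation used here. The high-dose mean was below the low-dose mean by -2.27, -1.99, -1.85, -1.62 and -1.38 on the log2 scale in 5 of them. In the other it was above by 1.52, with low-dose values close to background. In the first of these, the untreated animals measured 8.75, 8.78 and 8.72, the low-dose animals 8.93, 9.11 and 9.32 and the high-dose animals 6.52 and 7.17, so the untreated animals lay with the low dose.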

How the results depend on the processing

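The count of probe sets passing for high dose against untreated was 0 as reported and also 0 with dim probe sets left out. It was 13 with array weights, 2 with RNA integrity as a covariate, 70 with a covariate that marks untreated replicate 2 with low-dose replicate 1, its neighbour by pig number, 55 without both of these animals, 4 with an intensity trend, 3 with median centring, 9 with repeated quantile normalization, 7 with a robust prior, 2 with only the 5 arrays compared and 10 at an adjusted p under 0.1. Leaving out single animals gave 0 to 19, the highest without untreated replicate 2. For high dose against low dose the 6 calls became 10 with array weights, 0 with RNA integrity as a covariate, 25 with the pig number covariate, 1 with dim probe sets left out, 0 with only the low- and high-dose arrays, 12 without both animals and 14 at an adjusted p under 0.1, and 0 to 7 without single animals. The 881 separated probe sets became 287 at 2-fold and 940 to 1772 without single animals; fewer animals make separation easier by construction. Lists with a median of at least 0.25 in size numbered 15, and 9 with the mean of each gene's probe sets, and 13 to 20 without single animals. The differences of 110 named genes had the same direction in all 2062 gene and setting pairs, which says little of stability, since choosing genes with separated groups largely fixes it. Of 40 genes that passed in any alternative, CENPH passed in 5, MYOCD and IER5 in 4 and PTTG1, ENOSF1, FAM46A, IFRD1 and NR4A3 in 3 of them. Where a count moved, the cause was not tested. No paired analysis was possible because each array came from a different pig and the labels name no pairs between the groups. With 2 high-dose animals, their spread is poorly known and borrows from the other groups.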

Other observations

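Interferon-stimulated genes separated the 2 high-dose animals from each other and not the groups. Of 20 measured genes 0 were separated between high dose and untreated, and high-dose replicate 2 exceeded replicate 1 in 18. The list mean per animal, centred on 0 over the 8 animals, was -0.51 in high-dose replicate 1 and 0.70 in replicate 2, against -0.25, 0.42 and -0.01 in untreated animals. RSAD2, the antiviral enzyme viperin, chosen here after its values were seen, measured 5.81 in high-dose replicate 1 and 9.53 in replicate 2, with 6.94, 8.18 and 7.93 in untreated animals.

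In the cytosolic ribosome 46 of 59 genes were lower against 46.2% of all genes, 0 were separated, and the median was -0.07, or 0.01 without high-dose replicate 2. High-dose replicate 1 stood above replicate 2 in 54 of these 59 genes, and its list mean of 0.02 lay within the untreated range, against -0.10 in replicate 2. RPL3, of the large subunit, measured 11.12, 11.18 and 10.87 in untreated animals and 10.56 and 10.68 at the high dose, and is among the 5 genes in which replicate 1 was the lower. Mitochondrial ribosome and import genes differed in the other direction, with 18 of 23 higher and a median of 0.14. MRPS7, of the small mitochondrial subunit, measured 7.12, 7.28 and 7.19 against 7.82 and 7.54, and MRPL15, of the large one, 9.15, 9.12 and 9.18 against 9.75 and 9.46. In antigen presentation 17 of 19 genes were lower with a median of -0.09 and 1 separated, CTSS; untreated replicate 2 was the highest untreated animal in 16, and the median was -0.02 without it and -0.19 without untreated replicate 1.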
